A study of Mus musculus with 12 samples.

Results

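The genes described here handle iron and heme in the small intestine. They are 10 genes: *Slc11a2*, *Cybrd1* and *Tfrc*, which bring iron into cells, *Slc40a1* and *Heph*, which let it out, *Fth1*, which stores it, *Hmox1* and *Alas1*, which break down and build heme, *Hamp*, the hormone that controls export, and *Epas1*, a transcription factor that drives absorption. They were chosen by name for this role, with earlier results of these data known, out of 19938 genes. These are the genes that have a probe set of their own on the array, and each of the 10 has 1 such probe set. The jejunum of A/J and C57BL6J (B6) males was profiled 7 days after surgery at 8 weeks of age. In common bile duct ligation (CBDL), a model of cholestasis, the duct was separated from the portal vein and closed with a clip, so that bile no longer reached the gut. In sham mice the abdomen was opened but the duct was neither dissected nor ligated, so that the comparison covers the dissection as well as the lost bile flow. Each strain had 3 arrays of CBDL mice and 3 of sham mice, 12 in all. Both strains are inbred and carry no engineered allele.

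Iron absorption is an enterocyte function. Ferric iron in the lumen is reduced by the ferrireductase that *Cybrd1* encodes and carried across the brush border by DMT1, the product of *Slc11a2*. It is then stored in ferritin or passed to the blood by ferroportin, the product of *Slc40a1*, with the membrane ferroxidase hephaestin (*Heph*). Hepcidin, the peptide encoded by *Hamp*, is made mainly by hepatocytes, rises with iron load and inflammation, and causes ferroportin to be degraded. In iron deficiency HIF-2alpha, the product of *Epas1*, raises transcription of the absorptive genes in the enterocyte.

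All values are log2 signals, and a difference of 1 is a 2-fold change. Groups were compared with limma over 35556 probe sets, and a gene was called when its Benjamini-Hochberg adjusted p was below 0.05. Nothing states that the 3 arrays of a group are separate animals. The p-values therefore rest on the spread between arrays, which may be technical, and the small number of arrays limits the precision. Because the samples were bulk tissue, a change in the number of cells of a type and a change in RNA per cell cannot be told apart. The tissue label fitted the arrays, with the mean of 12 enterocyte markers between 12.08 and 12.33. Transcripts of hepatocytes were also present, and they moved with CBDL. The mean of 34 hepatocyte markers was 4.75, 4.75 and 4.94 in A/J sham, 7.21, 7.70 and 7.36 in A/J CBDL, 5.40, 6.04 and 7.31 in B6 sham, and 7.16, 7.49 and 7.34 in B6 CBDL. Of these 34, 22 were called higher after CBDL in A/J mice (against 0.63% of all probe sets) and 0 in B6 mice (against 0.0366%). In B6 mice 20 of the 34 had an unadjusted p under 0.05 in limma, against 7.64% of all probe sets. *Alb*, albumin, lay between 5.31 and 8.44 in A/J sham and between 10.69 and 12.63 in the 9 other arrays. B6 sham replicate 3 stands apart from its group, at the level of the CBDL arrays.

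*Hamp* and *Epas1* were higher after CBDL, and the genes that carry, store and build with iron were not called. In A/J mice 2 of the 10 genes were called, both higher, against 0.818% of all probe sets called and 0.63% called higher. At an unadjusted p under 0.05 these were 3 of 10, against 14.2%. In B6 mice 0 of 10 were called in the limma fit, against 0.0534%, and 5 of 10 had an unadjusted p under 0.05, against 7.64%. With the CBDL effect averaged over both strains, *Hamp* and *Epas1* were called again, against 1.74% called and 1.12% called higher, and 4 of 10 had an unadjusted p under 0.05, against 14.1%. Neither strain comparison called any of the 10 genes in limma, against 1.87% in sham and 1.78% in CBDL mice. There 1 of 10 (sham, against 15.4%) and 2 of 10 (CBDL, against 13.7%) had an unadjusted p under 0.05. For the interaction of strain and CBDL 0 of 10 were called in limma, against 0.0366%, and 0 of 10 had an unadjusted p under 0.05, against 6.88%. The median log2 CBDL difference of the 10 genes was 0.09 in A/J mice, and in B6 mice it was 0.06, against medians of all probe sets of -0.01265 and -0.00248.

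**Figure D1:**
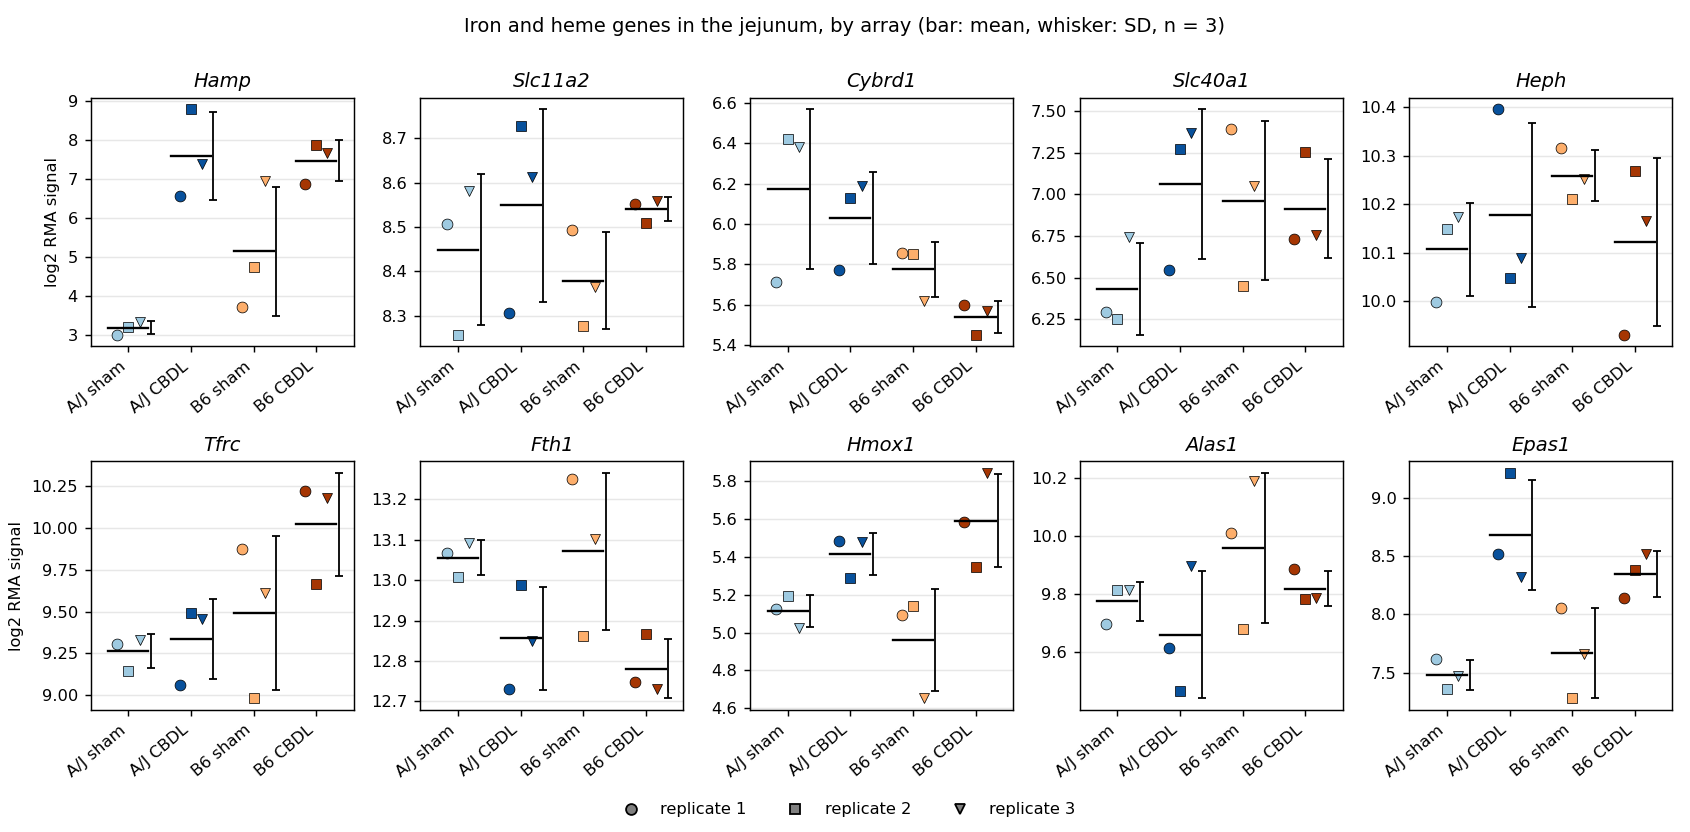
Log2 signal of each of the 10 iron and heme genes on each of the 12 arrays, with 1 panel per gene and the arrays in 4 groups of 3; each point is 1 array, each bar the group mean and each whisker the SD (n = 3). *Hamp* lies between 3.01 and 3.34 in A/J sham and between 6.57 and 8.80 in A/J CBDL, while the 3 B6 sham arrays spread from 3.71 to 6.96.

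Hepcidin was the gene that moved most. The *Hamp* signal was 3.01, 3.21 and 3.34 in A/J sham and 6.57, 8.80 and 7.38 in A/J CBDL. It was 3.71, 4.76 and 6.96 in B6 sham and 6.89, 7.88 and 7.66 in B6 CBDL. The A/J groups lay far apart, whereas the highest B6 sham array passed the lowest B6 CBDL array. In A/J mice *Hamp* rose by 4.40 with CBDL (standard error 0.73, adjusted p = 0.0203, limma). The A/J sham values lay at percentiles 12.3 to 16.7 of all probe sets on their arrays, so this baseline may not be above background, and the size of the rise depends on it. In B6 mice the difference was 2.33 (standard error 0.73, adjusted p = 0.379, limma). Averaged over both strains *Hamp* rose by 3.37 (standard error 0.52, adjusted p = 0.0106, limma). The interaction was 2.07, with a 95% interval from -0.20 to 4.34 and an adjusted p of 0.759, so the responses of the strains were not shown to differ. The A/J call was lost when A/J sham replicate 1 or 2 or A/J CBDL replicate 2 or 3 was left out, with adjusted p-values of 0.0597, 0.0855, 0.0843 and 0.0559. Without B6 sham replicate 3 the B6 difference was 3.24 (adjusted p = 0.0701).

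Neither strain comparison called *Hamp*. Between the sham groups all 3 A/J arrays lay below all 3 B6 arrays, and A/J minus B6 was -1.96 (standard error 0.73, 95% interval -3.57 to -0.35, adjusted p = 0.230, limma). This difference was -1.05 without B6 sham replicate 3. Between the CBDL groups it was 0.11, with a 95% interval from -1.50 to 1.72.

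*Hamp* followed the hepatocyte markers array by array. In B6 sham the array with the lowest hepatocyte mean, 5.40, had the lowest *Hamp*, 3.71, and the array with the highest, 7.31, had the highest, 6.96. A/J CBDL replicate 2 likewise had both the highest hepatocyte mean, 7.70, and the highest *Hamp*, 8.80, of all arrays. Less the hepatocyte mean, *Hamp* was -1.63 ± 0.10 (SD, n = 3) in A/J sham and 0.16 ± 0.88 in A/J CBDL. The same quantity was -1.10 ± 0.69 in B6 sham and 0.15 ± 0.36 in B6 CBDL. Of the 34 hepatocyte markers, 5 had a larger difference than *Hamp* in A/J mice and 2 in B6 mice, an order that rests on the dim *Hamp* baseline. With the hepatocyte mean as a covariate the *Hamp* difference was -0.56 in A/J mice (adjusted p = 1.00) and -0.14 over both strains (adjusted p = 1.00), but this covariate nearly coincides with the groups, and it widened the standard errors of all probe sets by a median factor of 2.51 and 2.52. The part of hepatocyte RNA in the *Hamp* result was not tested further.

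**Figure D2:**
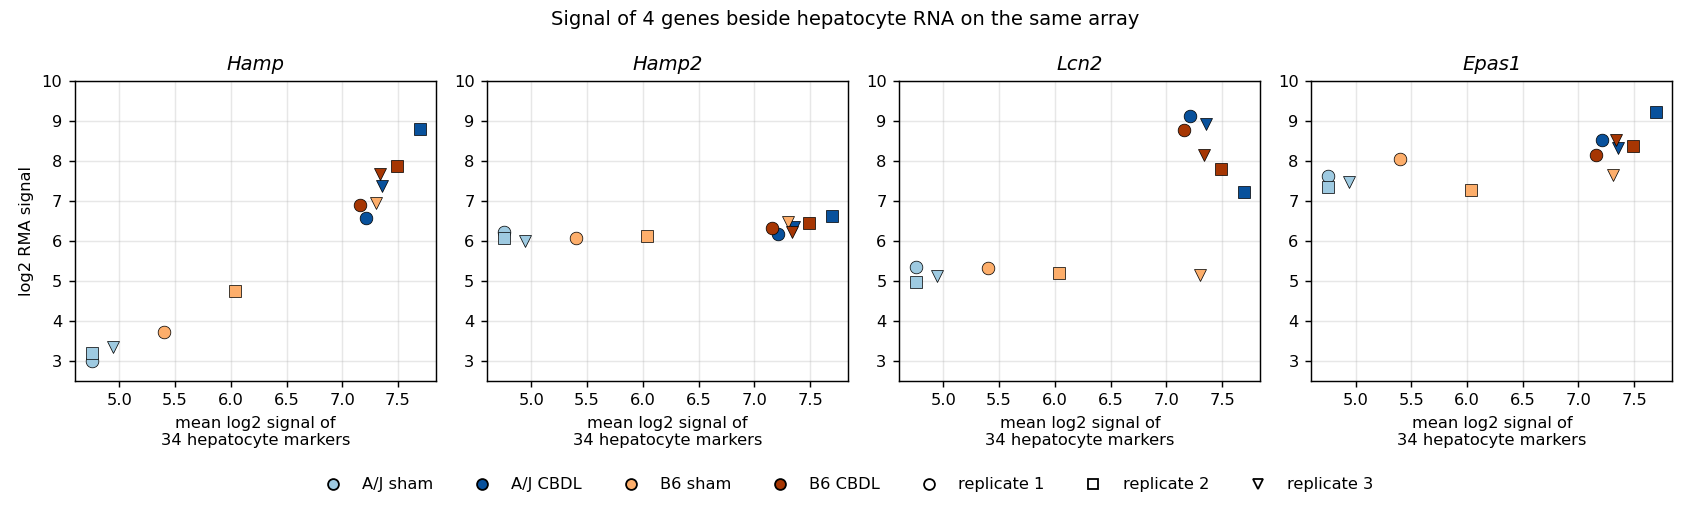
Log2 signal of *Hamp*, *Hamp2*, *Lcn2* and *Epas1* (vertical axes) against the mean log2 signal of 34 hepatocyte markers (horizontal axes), with 1 point per array colored by group. In the *Hamp* panel B6 sham replicate 3, at a hepatocyte mean of 7.31, sits among the CBDL arrays at 6.96, while *Lcn2* in the same array is at 5.15, as in the other sham arrays.

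The mouse has a second hepcidin gene, *Hamp2*, next to *Hamp*, and its start region is shown beside that of *Hamp* because the genes are near copies that the array reported differently. The windows are the 250 bases before each start, from RefSeq on GRCm38.p6, minus strand, at chr7:30944030-30944279 for *Hamp* and chr7:30924182-30924431 for *Hamp2*. Capitals mark a STAT motif (TTCNNNGAA) and a BMP response element (GGCGCC), each searched on both strands, through which inflammation and iron load are known to act on *Hamp*.
Hamp: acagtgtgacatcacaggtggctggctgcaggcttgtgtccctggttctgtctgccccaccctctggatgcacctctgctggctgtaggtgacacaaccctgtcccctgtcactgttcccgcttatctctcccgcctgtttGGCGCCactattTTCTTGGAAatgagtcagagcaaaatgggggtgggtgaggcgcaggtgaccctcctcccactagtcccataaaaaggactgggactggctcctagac
Hamp2: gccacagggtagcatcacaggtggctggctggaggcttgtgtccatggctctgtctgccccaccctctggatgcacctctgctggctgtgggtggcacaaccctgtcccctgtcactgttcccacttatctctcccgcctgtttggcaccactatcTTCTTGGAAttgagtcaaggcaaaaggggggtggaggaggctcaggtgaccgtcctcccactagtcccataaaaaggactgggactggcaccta
Aligned with gaps, 227 of 247 bases were identical (91.9%). Both windows hold the STAT match, whereas GGCGCC was matched only in *Hamp*, and the matches do not overlap. Of 32544 mouse windows around a start, 8.3% hold a STAT match and 11.9% a GGCGCC match, so each match alone is a description. *Hamp2* signal was at most 6.22 in A/J sham and at most 6.62 in A/J CBDL, and its CBDL differences, 0.29 for A/J and 0.12 for B6, were not called (adjusted p = 0.382 and 0.938). Whether probes of one gene also bind the other's RNA was not tested.

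The absorptive genes at the brush border stayed near their sham levels. *Slc11a2*, which encodes DMT1, was 8.51, 8.26 and 8.58 in A/J sham and 8.31, 8.73 and 8.61 in A/J CBDL. In B6 mice it was 8.49, 8.28 and 8.37 in sham and 8.55, 8.51 and 8.56 in CBDL. Every B6 CBDL array lay above every B6 sham array, but the difference was only 0.16, with a 95% interval from -0.11 to 0.43. The A/J difference was 0.10, with an interval from -0.17 to 0.37, so that neither strain's interval reached a change of 1.

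*Cybrd1*, the duodenal ferrireductase gene, was 5.71, 6.42 and 6.38 in A/J sham and 5.77, 6.13 and 6.19 in A/J CBDL. In B6 mice it was 5.86, 5.85 and 5.62 in sham and 5.60, 5.45 and 5.57 in CBDL. The CBDL differences were -0.14 and -0.24 and not called (adjusted p = 0.774 and 0.877). *Cybrd1* separated the strains more than the operations, and all 3 A/J CBDL arrays exceeded all 3 B6 CBDL arrays. The strain difference was 0.49 in CBDL mice (standard error 0.18, adjusted p = 0.248) and 0.40 in sham mice (adjusted p = 0.329). Weighting the arrays by quality called the sham difference, at 0.55 (adjusted p = 0.0379).

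Export genes showed no called change while *Hamp* rose. *Slc40a1*, ferroportin, was 6.29, 6.25 and 6.75 in A/J sham and 6.54, 7.27 and 7.37 in A/J CBDL. It was 7.39, 6.45 and 7.05 in B6 sham and 6.73, 7.25 and 6.76 in B6 CBDL. Both strains' groups overlapped. The differences were 0.63 in A/J mice (95% interval 0.02 to 1.24, adjusted p = 0.337) and -0.05 in B6 mice (interval -0.66 to 0.56, adjusted p = 0.990). Hepcidin acts on ferroportin protein, which the arrays do not measure.

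*Heph*, hephaestin, was 9.997, 10.15 and 10.17 in A/J sham and 10.40, 10.05 and 10.09 in A/J CBDL. It was 10.32, 10.21 and 10.25 in B6 sham and 9.93, 10.27 and 10.17 in B6 CBDL. The CBDL differences were 0.07 and -0.14, within the spread of the arrays (adjusted p = 0.836 and 0.900). The A/J sham arrays lay just below the B6 sham arrays, by -0.15 on average (adjusted p = 0.574).

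*Tfrc* encodes transferrin receptor 1, through which crypt and dividing cells take iron from the blood, and its mRNA is stabilized when cell iron is low. *Tfrc* was 9.31, 9.15 and 9.33 in A/J sham and 9.06, 9.49 and 9.46 in A/J CBDL. It was 9.87, 8.98 and 9.61 in B6 sham and 10.22, 9.67 and 10.18 in B6 CBDL. The B6 CBDL arrays held the highest group mean, and all of them exceeded all A/J CBDL arrays. The CBDL difference was 0.53 in B6 mice (95% interval 0.04 to 1.02, adjusted p = 0.605) and 0.07 in A/J mice (interval -0.42 to 0.57, adjusted p = 0.917). Between the strains after CBDL, A/J minus B6 was -0.69 (standard error 0.22, adjusted p = 0.185), which did not pass the threshold.

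*Fth1*, the ferritin heavy chain, which iron controls chiefly at translation, was 13.07, 13.01 and 13.09 in A/J sham and 12.73, 12.99 and 12.85 in A/J CBDL. It was 13.25, 12.86 and 13.10 in B6 sham and 12.75, 12.87 and 12.73 in B6 CBDL. The A/J CBDL arrays all lay below the A/J sham arrays, and in B6 mice the groups overlapped. The differences were -0.20 in A/J and -0.29 in B6 mice (adjusted p = 0.447 and 0.529), and -0.25 over both strains (standard error 0.08, adjusted p = 0.175). *Fth1* has processed copies elsewhere in the genome, and whether its probes bind their RNA was not tested.

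The heme genes differed from each other. *Hmox1* encodes heme oxygenase 1, which opens the heme ring to give biliverdin, carbon monoxide and free iron, and which oxidative stress induces. Its signal was 5.13, 5.19 and 5.03 in A/J sham and 5.48, 5.29 and 5.48 in A/J CBDL. In B6 mice it was 5.09, 5.14 and 4.65 in sham and 5.58, 5.35 and 5.85 in CBDL. All CBDL arrays thus lay above all sham arrays, in both strains. The differences were 0.30 in A/J mice (standard error 0.15, adjusted p = 0.406) and 0.63 in B6 mice (standard error 0.15, adjusted p = 0.208). The average over both strains, 0.47 (standard error 0.11, adjusted p = 0.0619, limma), missed the threshold, and 5 of 21 alternatives called it, with adjusted p-values from 0.0183 to 0.0498. Unlike *Hamp*, *Hmox1* was lowest in B6 sham replicate 3, the sham array with the highest hepatocyte mean.

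*Alas1* encodes the first and rate-limiting enzyme of heme synthesis outside red cells. It was 9.70, 9.82 and 9.81 in A/J sham and 9.62, 9.47 and 9.90 in A/J CBDL. In B6 mice it was 10.01, 9.68 and 10.19 in sham and 9.89, 9.78 and 9.79 in CBDL. The groups overlapped in each comparison, and the CBDL differences of -0.11 and -0.14 had 95% intervals from -0.42 to 0.19 and from -0.45 to 0.17.

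*Epas1*, the HIF-2alpha gene, was higher after CBDL. It was 7.61, 7.36 and 7.47 in A/J sham and 8.52, 9.22 and 8.32 in A/J CBDL. It was 8.06, 7.28 and 7.66 in B6 sham and 8.14, 8.38 and 8.52 in B6 CBDL. No CBDL array of either strain fell within the range of the sham arrays of its strain. *Epas1* rose by 1.20 in A/J mice (standard error 0.24, a 2.30-fold change, adjusted p = 0.0480, limma) and by 0.94 over both strains (standard error 0.17, adjusted p = 0.0199, limma). In B6 mice alone the difference was 0.68 (standard error 0.24, adjusted p = 0.462). The interaction was 0.52, with a 95% interval from -0.22 to 1.26. The A/J call sits at the threshold and held in 9 of 22 alternatives: leaving out any of A/J sham replicates 1, 2 or 3, A/J CBDL replicates 1 or 2, B6 sham replicate 3 or a B6 CBDL array ended it, with adjusted p-values from 0.0618 to 0.176. The average was lost without A/J sham replicate 2 (adjusted p = 0.0641) or B6 CBDL replicate 3 (adjusted p = 0.0605).

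Within groups *Epas1* did not keep the order of the hepatocyte markers. B6 sham replicate 3, with a hepatocyte mean of 7.31, had 7.66, between the other B6 sham arrays, although A/J CBDL replicate 2 was highest for both. With the hepatocyte mean as a covariate the *Epas1* difference kept its size, at 1.22 in A/J mice and 0.95 over both strains, but was not called (adjusted p = 1.00 in both). *Epas1* is also expressed by endothelial cells, and the arrays do not separate cell types.

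**Figure D3:**
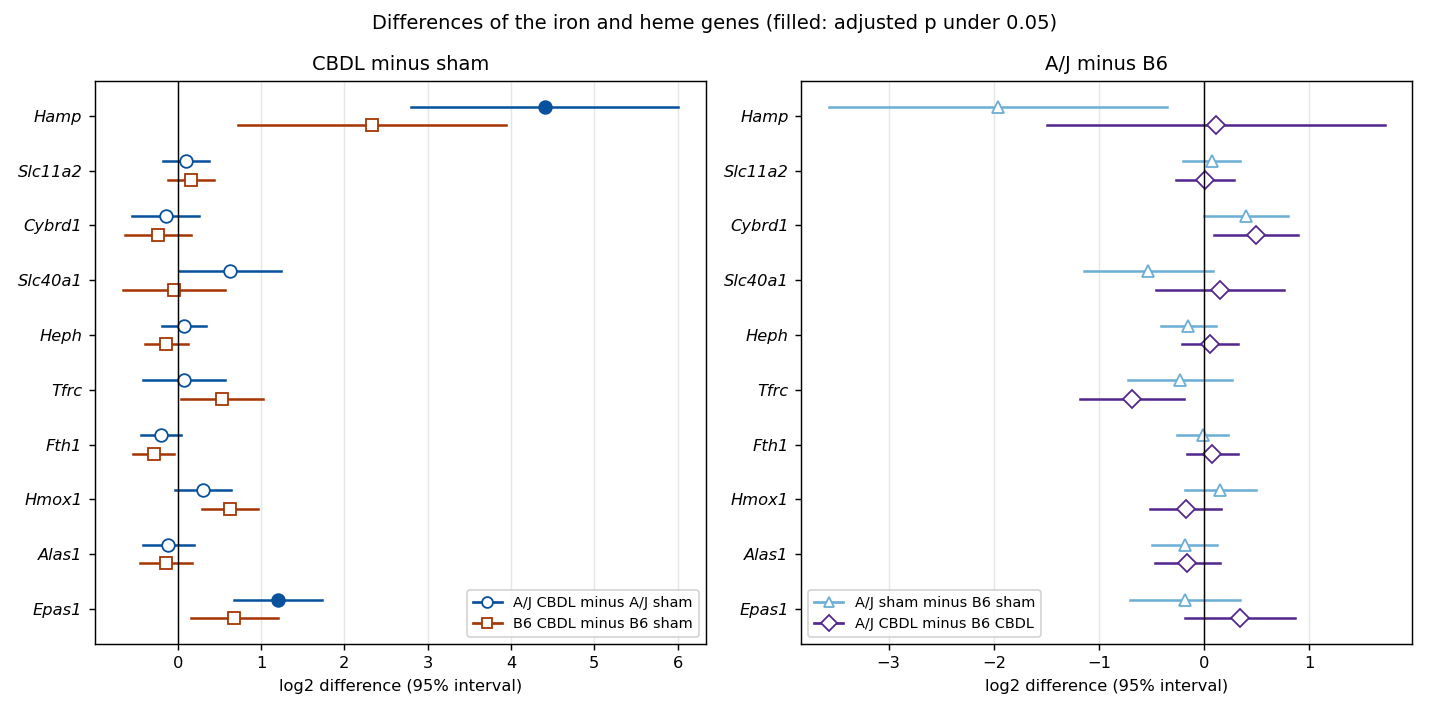
Log2 differences of the 10 genes with their 95% intervals from limma, CBDL minus sham in each strain on the left and A/J minus B6 under each operation on the right; filled symbols have an adjusted p under 0.05. The filled symbols are *Hamp* at 4.40 and *Epas1* at 1.20 in A/J mice, and no symbol is filled on the right.

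Over the 7 genes of uptake, export, storage and synthesis (*Slc11a2*, *Cybrd1*, *Tfrc*, *Slc40a1*, *Heph*, *Fth1* and *Alas1*), CBDL differences in either strain ran from -0.29 to 0.63. Their 95% intervals together spanned -0.66 to 1.24, and the lowest adjusted p was 0.337. Groups that did not overlap were found for 4 of the 10 genes in A/J mice (*Hamp*, *Epas1*, *Hmox1* and *Fth1*), against 17.1% of all probe sets. They were also found for 4 of 10 in B6 mice (*Epas1*, *Hmox1*, *Slc11a2* and *Cybrd1*), against 15.5%. Between strains they were found for *Hamp* and *Heph* in sham mice, against 18.7%, and for *Cybrd1* and *Tfrc* in CBDL mice, against 21.7%, so that the 2 of 10 in each strain comparison sat near the background.

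Around these genes, 8 lists covered further genes of iron and heme handling, of hepcidin control, of the HIF pathway and of NRF2. Of their 108 genes 102 were measured, and 12 were called in at least 1 of the 6 comparisons, against 4.28% of all probe sets. In A/J mice 7 rose and 0 fell with CBDL (against 0.63% of probe sets called higher), in B6 mice 1 rose and 0 fell (against 0.0366% of probe sets called higher), and over both strains 8 rose and 0 fell (against 1.12%). Of these 8, *Cp*, *Hpx*, *Hp* and *Trf* encode plasma proteins made mainly by the liver, and the others were *Lcn2*, *Steap4*, *Tfr2* and *Ndrg1*. With the hepatocyte mean as a covariate none of the 8 was called over both strains, with adjusted p-values from 0.315 for *Lcn2* to 1.00, under the widened standard errors given above. The median CBDL difference of the 102 genes was 0.07 in both strains, beside medians of all probe sets that lie near 0.

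The list of plasma carriers of iron and heme, with their receptors, held most of the calls. Of its 8 genes, 4 were higher in A/J mice (against 0.63% of all probe sets) and 1 in B6 mice (against 0.0366%). Hemopexin (*Hpx*), which binds free heme, was 5.17, 5.09 and 5.54 in A/J sham and 10.23, 10.26 and 10.98 in A/J CBDL, and it rose by 5.23 (standard error 0.47, adjusted p = 0.00112). In B6 mice *Hpx* was 6.68, 8.28 and 9.10 in sham and 10.12, 10.18 and 10.50 in CBDL, a difference of 2.25 that was not called (adjusted p = 0.145). A/J sham arrays were below B6 sham arrays by a called -2.76 (adjusted p = 0.0121), the order that the hepatocyte markers also showed. This call was lost with only the 6 arrays compared (adjusted p = 0.123) and without A/J sham replicate 2 (0.0598) or B6 sham replicate 2 (0.0514). It held in 18 of 22 alternatives, with differences from -3.43 to -1.22 and an adjusted p of up to 0.706 in limma. Haptoglobin (*Hp*), which binds free hemoglobin, rose by 5.09 in A/J mice (adjusted p = 0.00398), and transferrin (*Trf*), which carries iron in plasma, rose by 3.74 (adjusted p = 0.00434). In B6 mice their differences of 2.74 and 1.85 were not called (adjusted p = 0.145 and 0.194).

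Lipocalin 2 (*Lcn2*), which binds bacterial siderophores and is induced in inflamed epithelium, was the carrier called higher in each strain. *Hpx*, *Hp* and *Trf* were also higher in B6 CBDL than in B6 sham, with groups that did not overlap, but were not called there. *Lcn2* was 5.35, 4.97 and 5.13 in A/J sham and 9.13, 7.23 and 8.93 in A/J CBDL. It was 5.31, 5.21 and 5.15 in B6 sham and 8.77, 7.80 and 8.14 in B6 CBDL. All sham arrays of both strains lay between 4.97 and 5.35, and the lowest CBDL array was far above them. *Lcn2* rose by 3.28 in A/J mice (standard error 0.41, adjusted p = 0.00678) and by 3.02 in B6 mice (standard error 0.41, adjusted p = 0.0499). The B6 call sits at the threshold and held in 8 of 22 alternatives, and leaving out any array of the B6 groups ended it, with an adjusted p of up to 0.203. B6 sham replicate 3, high in hepatocyte markers, was at 5.15 for *Lcn2*.

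**Figure D4:**
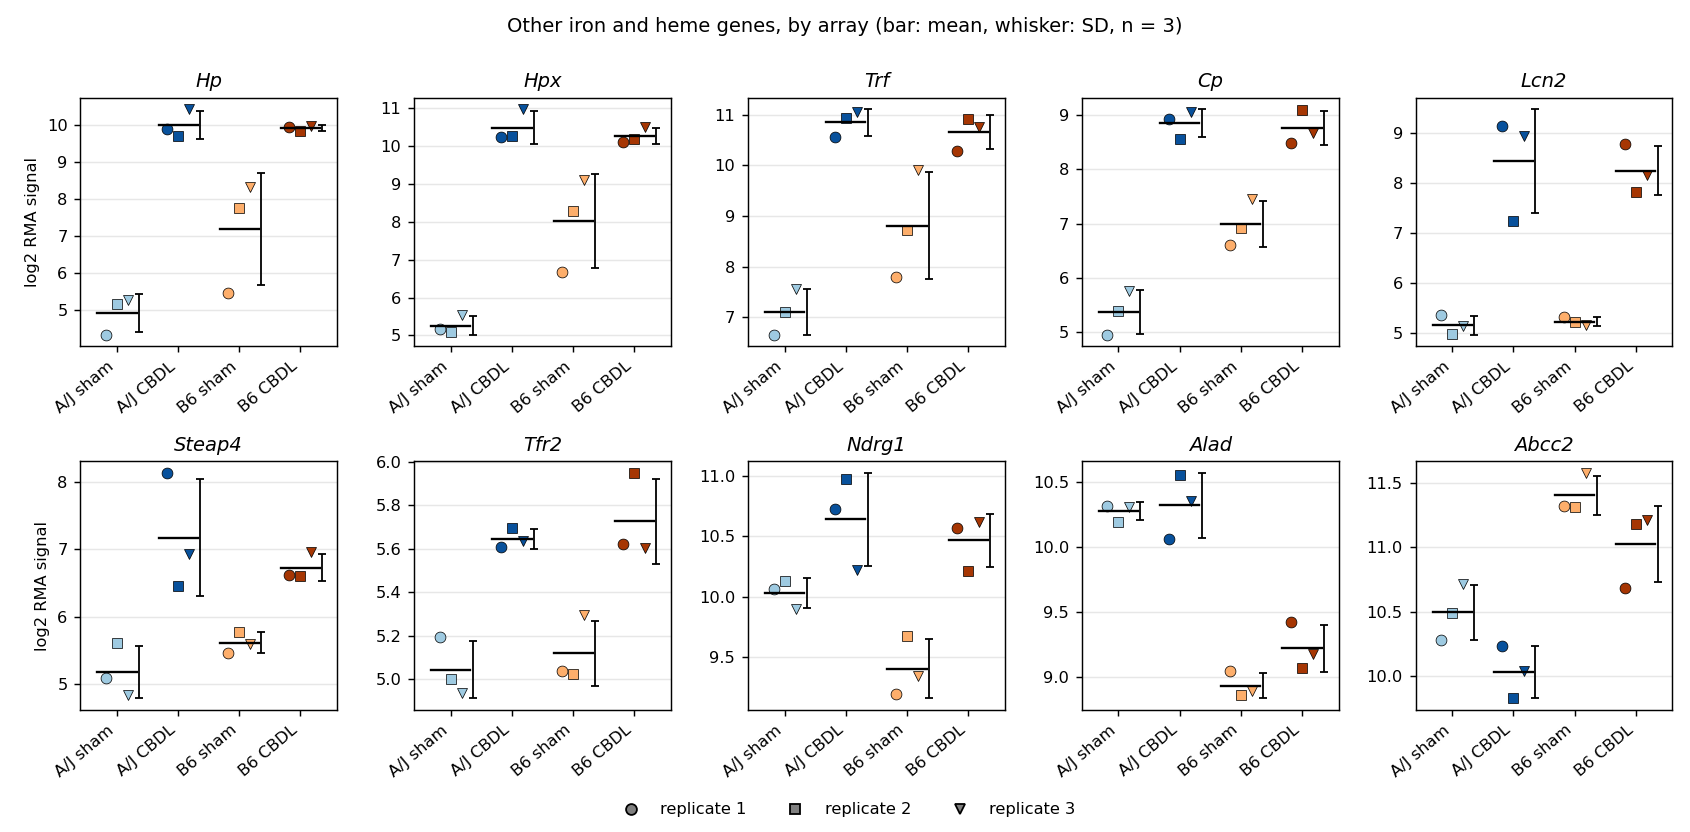
Log2 signal on each array of iron and heme genes outside the 10, with 1 panel per gene and 3 arrays per group; each point is 1 array, each bar the group mean and each whisker the SD (n = 3). *Lcn2* is above 7.2 in every CBDL array and below 5.4 in every sham array, and *Alad* is above 10 in every A/J array and below 9.5 in every B6 array.

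Of 18 other transporters, reductases and ferroxidases, 2 rose in A/J mice, against 0.63% of all probe sets called higher. In B6 mice 0 of 18 were called in limma, and 5 had an unadjusted p under 0.05, against 7.64% of all probe sets. Ceruloplasmin (*Cp*), the plasma ferroxidase related to hephaestin, was 4.96, 5.39 and 5.76 in A/J sham and 8.93, 8.55 and 9.05 in A/J CBDL, and it rose by 3.47 (standard error 0.26, adjusted p = 0.000538). In B6 mice *Cp* was 6.61, 6.91 and 7.45 in sham and 8.49, 9.09 and 8.67 in CBDL. That B6 difference, 1.76, missed the threshold (adjusted p = 0.0519), and A/J sham was below B6 sham by -1.62 (adjusted p = 0.00820, and 0.0671 with only the 6 arrays compared). With the hepatocyte mean as a covariate this sham difference was -1.01 (adjusted p = 0.620, limma), under standard errors widened by a median factor of 1.63. The ferrireductase gene *Steap4*, which inflammation induces, rose by 1.997 in A/J mice (standard error 0.35, adjusted p = 0.0284), from 5.08, 5.61 and 4.84 to 8.14, 6.46 and 6.92. Its call was lost in 8 of 22 alternatives, among them leaving out A/J CBDL replicate 3 (adjusted p = 0.0559). In B6 mice the *Steap4* groups did not overlap either, with a difference of 1.12 (adjusted p = 0.382).

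Of 24 genes in the list of hepcidin control, which also holds the second hepcidin gene *Hamp2*, 1 was called. Of all probe sets, 4.28% were called in at least 1 of the 6 comparisons, so this count sat near the background. This was the transferrin receptor 2 gene *Tfr2*, an iron sensor of hepatocytes. It rose by 0.60 in A/J mice (standard error 0.12, adjusted p = 0.0492) and by 0.60 over both strains (standard error 0.08, adjusted p = 0.00655). The A/J call held in 6 of 22 alternatives. None of 9 storage and sensing genes was called in limma. For CBDL an unadjusted p under 0.05 was found for 3 of the 9 in A/J mice (against 14.2% of all probe sets) and 0 in B6 mice (against 7.64%). The lowest p-values among them belonged to the ferritinophagy receptor gene *Ncoa4*, with 0.62 in A/J and -0.04 in B6 mice (adjusted p = 0.0938 and 0.986), and the iron sensor gene *Fbxl5*, with 0.46 for A/J minus B6 after CBDL (adjusted p = 0.118).

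Among 18 genes of the HIF pathway, *Ndrg1*, a hypoxia and stress responsive gene, was the 1 called. This count too sat near the 4.28% of all probe sets called in at least 1 of the 6 comparisons. For CBDL 8 of 18 had an unadjusted p under 0.05 in A/J mice, against 14.2% of all probe sets. These were 3 in B6 mice (against 7.64%) and 6 over both strains (against 14.1%). In A/J mice *Hif3a*, *Vegfa*, *Ndrg1*, *Car9*, *Pfkfb3* and *Ddit4* were higher, and *Vhl* and *Hif1an* were lower. In B6 mice *Ndrg1* and *Ddit4* were higher and *Ankrd37* was lower. Over both strains *Hif3a*, *Vegfa*, *Ndrg1*, *Car9* and *Ddit4* were higher and *Ankrd37* was lower. *Ndrg1* was 10.07, 10.13 and 9.89 in A/J sham and 10.73, 10.97 and 10.22 in A/J CBDL. It was 9.19, 9.68 and 9.34 in B6 sham and 10.57, 10.21 and 10.62 in B6 CBDL. Over both strains *Ndrg1* rose by 0.84 (standard error 0.14, adjusted p = 0.0142), and neither strain alone passed the threshold (adjusted p = 0.185 and 0.0977).

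The strains differed in single genes of heme synthesis and breakdown under both operations. *Alad*, the gene of the second enzyme of heme synthesis, was 10.32, 10.19 and 10.31 in A/J sham against 9.05, 8.86 and 8.90 in B6 sham. It was 10.06, 10.56 and 10.35 in A/J CBDL against 9.42, 9.07 and 9.18 in B6 CBDL. Every A/J array exceeded every B6 array, with a difference of 1.34 in sham (standard error 0.13, adjusted p = 0.000561) and 1.10 in CBDL mice (standard error 0.13, adjusted p = 0.00233). Of the 9 heme synthesis genes measured, this was the 1 called. *Abcc2*, an apical exporter of conjugated bilirubin, was lower in A/J than in B6 mice by -0.91 in sham (adjusted p = 0.0203) and -0.99 in CBDL mice (adjusted p = 0.0140), the 1 called of 5 breakdown genes. Beside these counts of 1 of 9 and 1 of 5, the strain comparisons called 1.87% of all probe sets in sham and 1.78% in CBDL mice. The *Abcc2* calls were lost in some fits without an array, with adjusted p-values of up to 0.0949 (without B6 sham replicate 3) and 0.0741 (without B6 CBDL replicate 2). Over all alternatives the sham call held in 16 of 22, with differences from -1.02 to -0.70 and an adjusted p of up to 0.717 in limma.

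A list of 11 genes covered targets of NRF2, the factor that induces *Hmox1* and glutathione genes, with its own gene *Nfe2l2* and its regulator *Keap1*. None was called for CBDL in limma. At an unadjusted p under 0.05 were 4 in A/J mice (against 14.2% of all probe sets) and 2 in B6 mice (against 7.64%). In A/J mice *Gclc* and *Gclm* were higher and *Keap1* and *Srxn1* lower, and in B6 mice *Srxn1* and *Osgin1* were lower. Between the strains after CBDL 2 of the 11 differed (against 1.78%). *Gclc*, for glutathione synthesis, was 10.73, 10.06 and 10.37 in A/J CBDL and 8.54, 9.11 and 9.71 in B6 CBDL, a difference of 1.27 (standard error 0.27, adjusted p = 0.0433). *Gsr*, glutathione reductase, was 8.48, 8.41 and 8.64 in A/J CBDL and 9.46, 9.14 and 8.86 in B6 CBDL, a difference of -0.64 (standard error 0.14, adjusted p = 0.0489). Both calls sit at the threshold and held in 10 and 7 of 22 alternatives, with adjusted p-values of up to 0.147 for *Gclc* and 0.153 for *Gsr*, both without an array of the CBDL groups.

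Markers of other cells were read on the same arrays. Of 12 enterocyte markers, *Lct*, lactase, was the 1 called, at -0.47 over both strains (adjusted p = 0.0303), against 1.74% of all probe sets. For CBDL, 5 of the 12 had an unadjusted p under 0.05 in limma in A/J mice, against 14.2%. In B6 mice it was 1 of 12 (against 7.64%), and over both strains 5 of 12 (against 14.1%). In A/J mice *Vil1* (-0.25), *Lct* (-0.58), *Apoa4* (-0.16) and *Cdh17* (-0.22) were lower and *Alpi* (0.35) was higher. *Gip*, an upper gut hormone gene, was higher in A/J than in B6 mice by 0.49 in sham and 0.72 in CBDL mice (adjusted p = 0.0475 and 0.00625). All of these were named after their values were seen. The 8 markers of position along the gut mix proximal and distal genes, so their mean does not give a position. The distal ones also respond to bile acids. This mean was 7.26, 7.10 and 7.06 in A/J sham and 7.27, 7.71 and 7.51 in A/J CBDL, higher after CBDL without overlap. In B6 mice it overlapped, from 7.04 to 7.27 in sham and from 7.05 to 7.30 in CBDL. None of these 8 was called for CBDL in A/J mice in limma, and 5 had an unadjusted p under 0.05, against 14.2%. Of these 5, proximal *Pdx1* (1.13) and *Onecut2* (0.67) and distal *Fabp6* (1.12) and *Slc10a2* (1.15) were higher, and distal *Slc51a* (-0.72) was lower. The part of the 8 markers in the A/J results was not tested. No marker of macrophages, red cells, dividing cells or exocrine pancreas was called in any comparison. Their list means ran from 6.71 to 7.25 for 10 macrophage markers, from 4.48 to 5.13 for 4 erythroid markers, from 6.83 to 7.88 for 9 proliferation markers, and from 4.78 to 5.27 for 6 pancreas markers.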

How the data were processed

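The authors deposited log2 values for 12 arrays. The submitters' processing notes name the Affymetrix Expression Console and RMA, without versions. Their methods name GCRMA and another mouse array, but the probe set numbers match the Mouse Gene ST platform table, and which of the methods made the values is not settled here. The deposited values ran from 1.57 to 14.4, with array medians from 5.36 to 5.51, and were used unchanged. Genes were named from the platform table, where 21789 of 35556 probe sets have 1 symbol, 1621 several and 12146 none, and a gene with several probe sets was read on the brightest.

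limma 3.58.1 in R 4.3.3 fitted 1 mean per group over all 12 arrays with empirical Bayes variances, and p-values were adjusted (Benjamini-Hochberg) over all probe sets. The fit was tested on simulated data. CBDL was compared with sham in each strain and over both, A/J with B6 under each operation, and the interaction was tested. Deviations from the group means of arrays with the same replicate number correlated at -0.31 to 0.36, so the numbers were not taken as pairs. Named besides the 10 genes were all called genes of the 8 pathway lists, at most 6 a list, and where none was called the 2 with the lowest p. In A/J mice, genes with an unadjusted p under 0.05 for CBDL were also named from the HIF, NRF2, enterocyte and gut position lists. In B6 mice such genes were named from the HIF and NRF2 lists. Values of *Alb* and *Hamp2* are given because a result turned on them. The genes and lists were chosen with earlier results of these data known. The alternatives are described in the closing section. Start windows of 5 of the 10 genes were in the RefSeq table, and only that of *Hamp* is shown.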

Additional observations from a re-analysis of the deposited data

How the results depend on the processing

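There were 22 alternatives, 12 of which left out 1 array each; the others were only the 6 arrays compared, no probe sets among the 30% dimmest, only single-symbol probe sets, quantile normalization, median subtraction, array weights, a trend and robust prior, the hepatocyte mean as a covariate, gene means, and a replicate block. The 3 arrays per group limit every estimate. The count of the 10 genes called in A/J mice was 2, and it was 1 with only the 6 arrays compared, 1 with each array's median subtracted, 1 with the replicate block, 0 with the hepatocyte mean as a covariate, and 0 to 2 with an array left out. Over both strains the count was 2, and it was 1 with the replicate block, 0 with the covariate, and 1 to 3 with an array left out; it was 3, *Hmox1* included, without the dimmest probe sets, with single-symbol probe sets only, with array weights and with gene means. Between the sham groups it was 0, and 1 with array weights (*Cybrd1*). *Hamp* with the covariate turned from 4.40 to -0.56 in A/J mice and from 3.37 to -0.14 over both strains, and the cause was not tested. Its call over both strains held in all other alternatives, with adjusted p-values from 0.000680 to 0.0352. The replicate numbers were not taken as pairs, and whether arrays of the same number shared a batch was not tested. With the replicate block *Epas1* had an adjusted p of 0.103 in A/J mice and 0.0518 over both strains, *Hamp* 0.0166 and 0.00963, and *Lcn2* in B6 mice 0.0601. *Epas1* in A/J mice had 0.128 with only the 6 arrays and 0.0684 with medians subtracted. Sign changes were sought in the 10 genes and in the pathway genes named as called or lowest in p. Of 40 found, 38 were between values that neither setting called.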

Other observations

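Over the 12 arrays, the gene most like *Hamp* among all genes was *Rbp4*, a plasma retinol carrier made by the liver (Pearson r = 0.993), followed by *Plg* (0.990) and *Serpinc1* (0.987), which encode plasminogen and antithrombin. Over the deviations from the group means the closest were *C8g* (0.995), *Rbp4* (0.983) and *Apoh* (0.969). These values are descriptions over arrays that fall into 4 groups, chosen as the highest of all genes.

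*Heph* was closest to *Bach1*, which encodes a heme-binding repressor of *Hmox1*, over the arrays (0.930) and over the deviations (0.952). *Epas1* was closest to *Lrrc58* (0.937), *H2-Q10* (0.923) and *Midn* (0.922), and *Tfrc* to *Msto1* (0.945).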
